A study of Homo sapiens with 3 samples.

Results

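The genes described here encode the heat shock proteins and chaperonins of UM-UC-3, an established human bladder cancer cell line, measured after an siRNA had been aimed at the long noncoding RNA DANCR. Members were chosen by symbol, with earlier results of these data known. They were the single-gene probe sets whose symbol begins with DNAJA, DNAJB, DNAJC, HSPA, HSPB, HSPH or CCT and a digit, with HSP90AA1, HSP90AB1, HSPD1, HSPE1, HSF1, HSF2, BAG3 and TCP1. HSPA5, DNAJB9, DNAJB11 and DNAJC3, which work in the endoplasmic reticulum (ER), were left out. This gave 176 of 41091 single-gene probe sets, for 78 of 19775 genes. A further 15 probe sets name a member symbol together with other genes and were not used, which removes HSPA8, HSPA1A, HSPA1B and TCP1. HSF2 was not analysed here.

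Cells received DANCR siRNA1, DANCR siRNA2 or a negative control siRNA, each at 75 nM, and RNA was taken at 48 h. Each group was a single Affymetrix array, so 3 arrays were compared, and no difference below has a replicate check or a p-value. All groups shared the lipid transfection and the culture conditions. The siRNA sequences are shown because they define the groups, with the 3′ overhang in capitals.
DANCR siRNA1: gcguacuaacuuguagcaaTT
DANCR siRNA2: gagcuagagcagugacaauTT
control siRNA: uucuccgaacgugucacguTT

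Heat shock proteins are molecular chaperones. HSP70 proteins bind unfolded stretches of other proteins in cycles of ATP hydrolysis, J-domain proteins (DNAJA, DNAJB and DNAJC) bring clients to HSP70 and start the hydrolysis, and HSP110 proteins help HSP70 to release ADP. HSP90 finishes the folding of kinases and receptors, and the ring-shaped chaperonins enclose a protein while it folds, TRiC in the cytosol and HSPD1 with its lid HSPE1 in mitochondria. Under stress the factor HSF1 drives many of these genes through heat shock elements, which are inverted repeats of the unit GAA.

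The value in use is an intensity on a linear scale, and the median of all values, 10.5, served as a floor to which lower values were raised. A gene was measured when at least 1 array lay above the floor, and its brightest probe set by the mean of the arrays was used for it. Of the 78 members, 59 were measured, and 55 of these lay above the floor on all 3 arrays. DNAJB13, DNAJC12, HSPA6 and the noncoding DNAJC3-DT did so on fewer. The 19 members below the floor on every array were DNAJB7, DNAJB8, DNAJC5B, DNAJC5G, DNAJC15, DNAJC28, HSPA2, HSPA12B, HSPB2, HSPB3, HSPB6, HSPB7, HSPB9, CCT6B, CCT8L2 and 4 noncoding RNAs named after member genes. These were DNAJB8-AS1, DNAJC9-AS1, DNAJC27-AS1 and HSPA2-AS1. By role, 9 of 11 HSP70 and HSP110 genes, both HSP90 genes, 12 of 14 DNAJA and DNAJB genes, 22 of 26 DNAJC genes and 7 of 9 TRiC and TRiC-like genes were measured, as were 2 of 7 small heat shock proteins. The name cytosolic heat shock proteins covers only some of the members. As background knowledge, 8 of them act in mitochondria and 8 at or in the ER.

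The check of the target came out with DANCR at an intensity of 116 with siRNA1, 126 with siRNA2 and 671 in the control. Array medians were 10.5 throughout, and the 3′/5′ ratio of ACTB, a sign of RNA integrity and amplification, was 11.8 with siRNA1, 14.4 with siRNA2 and 11.9 in the control. Of 15 epithelial and urothelial markers 6 were measured. KRT18 stood at 711, 1022 and 1315 with siRNA1, siRNA2 and control. The other measured ones, KRT7, KRT8, GATA3, PPARG and FOXA1, were dim, none above GATA3 with siRNA2, at 35.2. CDH1, EPCAM and the uroplakins UPK1A, UPK1B, UPK2 and UPK3A lay below the floor on every array. All 4 mesenchymal markers were measured, with VIM at 4412, 4861 and 5322. The others were dimmer, with ZEB1 at 358, 281 and 379, CDH2 at 61.9, 94.5 and 82.2, and FN1 at 30.2, 43.9 and 27.0. PTPRC, CD14, CDH5 and ALB, which mark leukocytes, endothelium and liver, were below the floor on every array. Of the leukocyte, endothelial and erythroid or hepatic markers, 2 of 4, 2 of 3 and 2 of 3 were measured, none of them above TIE1 in the control, at 30.9. In 21.0% of the member probe sets, against 32.1% of all probe sets, the deposited value was equal on all 3 arrays (relative tolerance 1e-09), so some ratios below are exactly 0.

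Promoter sequences are shown first for some of the genes, and whether the heat shock element bears on any ratio was not tested. RefSeq promoter windows (GRCh38.p14), from 250 bases before to 50 bases after a start site, were matched for 69 of the 78 members. They were searched for an element of 3 units, GAANNTTCNNGAA or its reverse complement TTCNNGAANNTTC. It was found in 6 of 91 member windows (6.59%), against 0.490% of all 35116 windows. The shorter form of 2 units, GAANNTTC or TTCNNGAA, each its own reverse complement and also contained in the longer element, was in 25.3% of member windows and 13.5% of all windows. The 6 genes with the longer element were HSPA6, HSP90AA1, HSP90AB1, DNAJA1, DNAJB6 and HSPD1. The windows of HSPA6 and DNAJB6 are not shown, and that of HSPE1 is shown as the neighbour of HSPD1. The match describes letters in a window, not a bound site. Capitals mark the 3-unit matches, and each sequence runs 5′ to 3′ on the strand of the gene.
HSP90AA1, chr14:102086995-102087294, minus strand: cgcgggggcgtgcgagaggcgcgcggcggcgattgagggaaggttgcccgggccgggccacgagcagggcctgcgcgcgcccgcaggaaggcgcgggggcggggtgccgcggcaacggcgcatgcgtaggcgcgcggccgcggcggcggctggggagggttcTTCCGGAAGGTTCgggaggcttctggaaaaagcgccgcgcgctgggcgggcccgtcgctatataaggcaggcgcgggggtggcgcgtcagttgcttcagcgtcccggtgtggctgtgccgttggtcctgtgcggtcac
HSP90AB1, chr6:44247693-44247992, plus strand: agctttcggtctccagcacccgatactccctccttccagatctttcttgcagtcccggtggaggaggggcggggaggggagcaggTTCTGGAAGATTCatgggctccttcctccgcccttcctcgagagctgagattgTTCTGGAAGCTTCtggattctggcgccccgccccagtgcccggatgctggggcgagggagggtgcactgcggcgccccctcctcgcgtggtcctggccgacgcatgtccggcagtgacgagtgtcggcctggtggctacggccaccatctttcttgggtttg
DNAJA1, chr9:33025023-33025322, plus strand: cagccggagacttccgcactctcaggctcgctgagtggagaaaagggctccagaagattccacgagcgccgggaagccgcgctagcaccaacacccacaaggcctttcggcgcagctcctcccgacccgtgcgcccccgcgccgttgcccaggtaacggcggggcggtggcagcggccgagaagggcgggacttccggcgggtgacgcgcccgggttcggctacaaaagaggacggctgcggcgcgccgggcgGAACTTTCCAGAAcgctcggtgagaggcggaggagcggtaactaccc
HSPD1, downstream start, chr2:197499791-197500090, minus strand: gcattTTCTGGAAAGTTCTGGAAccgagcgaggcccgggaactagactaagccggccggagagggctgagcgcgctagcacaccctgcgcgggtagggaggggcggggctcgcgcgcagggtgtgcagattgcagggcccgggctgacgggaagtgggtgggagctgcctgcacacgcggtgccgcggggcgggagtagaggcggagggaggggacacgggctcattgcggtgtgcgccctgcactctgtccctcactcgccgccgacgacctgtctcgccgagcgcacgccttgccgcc
HSPE1, chr2:197500129-197500428, plus strand: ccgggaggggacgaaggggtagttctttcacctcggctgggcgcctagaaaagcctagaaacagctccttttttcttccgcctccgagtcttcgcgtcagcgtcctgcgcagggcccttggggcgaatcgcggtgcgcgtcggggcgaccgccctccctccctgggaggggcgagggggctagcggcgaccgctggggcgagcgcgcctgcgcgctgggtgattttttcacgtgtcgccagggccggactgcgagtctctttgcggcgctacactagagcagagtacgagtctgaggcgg

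HSPD1 and HSPE1 stand head to head, with 105 bases between the upstream HSPD1 start and the HSPE1 start, so the HSPE1 window above also holds the upstream HSPD1 start. The HSPD1 element consists of 2 overlapping matches at the far end of the window of its downstream start. The HSPE1 window holds no 3-unit match, but it begins at 197500129, past the end of that HSPD1 window at 197500090. The element lies between the downstream HSPD1 start and the HSPE1 start, which are 539 bases apart. It is thus upstream of the HSPE1 start too, outside the bases searched for HSPE1.

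The first question was how the chaperone genes stood with each siRNA against the control. At a 2-fold threshold 1 of 59 measured members was higher with siRNA1, DNAJC6, and none was lower, against 1.87% and 1.75% of all 12436 measured genes. With siRNA2, 1 member was 2-fold higher, DNAJC30, and none was lower, against 2.15% and 1.21% of all genes. With 59 members, these counts are near the background shares. No member was 2-fold from the control in the same direction with both siRNAs, against 0.997% of all genes, and both ratios use the same control array. The median log2 ratio over the members was 0.12 with siRNA1 and 0.00 with siRNA2, where the median of all genes was 0.00 in both. With siRNA1, 35 members were higher and 15 lower, 59.3% and 25.4%, against 42.3% and 39.5% of all genes. With siRNA2, 23 were higher and 26 lower, 39.0% and 44.1%, against 45.0% and 36.2% of all genes.

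A threshold of 1.5-fold holds more of the members. With siRNA1, 5 were higher, 8.47% against 7.14% of all genes, and none was lower, against 6.03%. They were DNAJC6, DNAJB12, HSPA13, DNAJA2 and DNAJC16. With siRNA2, 4 were higher, 6.78% against 8.75%, namely DNAJC30, DNAJA2, DNAJB12 and DNAJC10. With siRNA2, 3 were lower, 5.08% against 4.29%, namely HSPD1, DNAJC6 and DNAJC5.

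**Figure D1:**
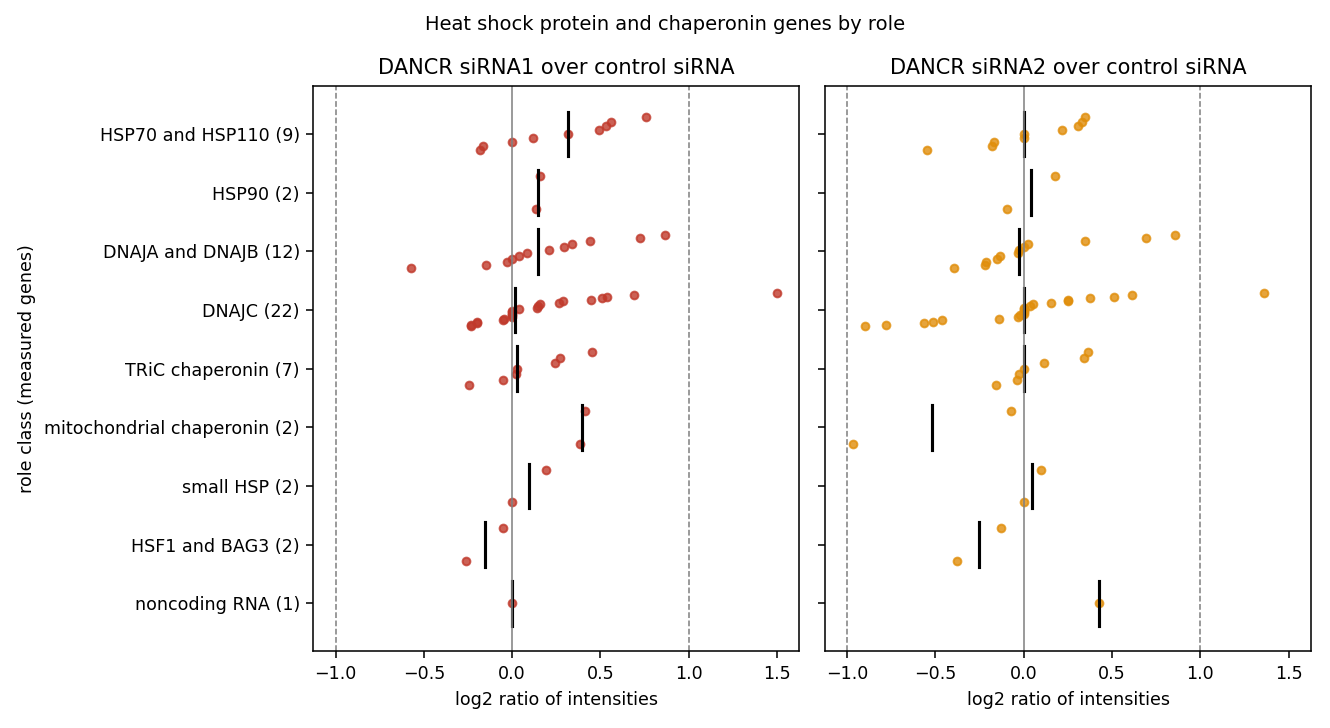
Log2 ratios of intensity to the control array (x axis) for the 59 measured genes, by role (y axis, number of genes in brackets), with siRNA1 on the left and siRNA2 on the right. Points are genes, black bars are class medians and dashed lines mark 2-fold; DNAJC6 with siRNA1 (2.83-fold) and DNAJC30 with siRNA2 (2.57-fold) are the points beyond them.

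Among the HSP70 and HSP110 genes the median log2 ratio was 0.32 with siRNA1 and 0.00 with siRNA2. HSPH1, an HSP110 that releases ADP from HSP70, had intensities of 968 with siRNA1, 811 with siRNA2 and 655 in the control. It was thus 1.48-fold and 1.24-fold higher with the siRNAs, and its 2 other probe sets both gave a log2 ratio of 0.52 with siRNA1, and 0.20 and -0.05 with siRNA2. HSPA4, a close relative of the same group, stood at 1067 with siRNA1, 884 with siRNA2 and 760 in the control. All 4 HSPA4 probe sets were above the control on both siRNA arrays, from 0.29 to 0.84 with siRNA1 and from 0.09 to 0.46 with siRNA2. HSPA9, the HSP70 of the mitochondrial matrix, had 2583 with siRNA1, 2247 with siRNA2 and 1789 in the control. Its 3 measured probe sets spanned 0.40 to 0.68 with siRNA1 and 0.33 to 0.48 with siRNA2. By the brightest probe sets of HSPH1, HSPA4 and HSPA9 the siRNA1 array was the highest and the control the lowest.

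HSPA13, a short HSP70-like protein of microsomes, stood at 414 with siRNA1, 312 with siRNA2 and 245 in the control. It was 1.69-fold and 1.27-fold higher, and its other probe set, at 68.2, 69.2 and 36.8, gave 0.89 and 0.91 on the log2 scale. HSPA14, an HSP70 that works at the ribosome, had no settled direction. Its brightest probe set read 750 with siRNA1, 412 with siRNA2 and 603 in the control, and the others gave 0.68 and 0.54, and -0.66 and -0.72, with siRNA1 and siRNA2. HSPA4L, a relative of HSPA4, had log2 ratios of 0.12 and 0.00, and its other probe set gave -0.79 and -0.10. The strictly stress-inducible HSPA6 read 9.20 with siRNA1, 9.82 with siRNA2 and 11.8 in the control, at or about the floor on all arrays. HSPA1L was at 13.5 on every array, and HSPA12A, an atypical HSP70, at 34.9, 34.9 and 39.5.

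Both HSP90 genes were measured by several probe sets. HSP90AA1, the stress-responsive form of cytosolic HSP90, read 5488 with siRNA1, 5570 with siRNA2 and 4927 in the control, log2 ratios of 0.16 and 0.18. Its 3 other probe sets gave 0.16, 0.44 and 0.61 with siRNA1 and 0.19, 0.35 and 0.60 with siRNA2, all above the control. HSP90AB1, the constitutive form, read 2658 with siRNA1, 2265 with siRNA2 and 2420 in the control. All 3 of its probe sets lay above the control with siRNA1, by 0.14 to 0.25, and below it with siRNA2, by -0.06 to -0.10. Differences of this size have no replicate error to be set against. The window of each gene shown above holds the 3-unit heat shock element, while windows at other start sites of both genes hold none.

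For the DNAJA and DNAJB genes, the general partners of HSP70, the median log2 ratio with siRNA1 was 0.15 and that with siRNA2 was -0.03. DNAJA1, a farnesylated partner of cytosolic HSP70 whose promoter is shown above, stood at 1439 with siRNA1, 894 with siRNA2 and 1176 in the control. Both of its probe sets were above the control with siRNA1 (0.29 and 0.42) and below it with siRNA2 (-0.40 and -0.20). DNAJA2, its relative, read 385 with siRNA1, 422 with siRNA2 and 233 in the control, 1.65-fold and 1.81-fold higher. The other DNAJA2 probe set gave log2 ratios of 0.19 and 0.16. DNAJB12, which anchors a J domain in the ER membrane, read 175, 155 and 95.8 with siRNA1, siRNA2 and control, 1.82-fold and 1.62-fold higher. Its other measured probe sets gave 0.39 and 0.41, and 0.19 and 0.00.

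DNAJB6, which keeps polyglutamine proteins from aggregating, stood at 127 with siRNA1, 170 with siRNA2 and 189 in the control, log2 ratios of -0.57 and -0.15 on its single probe set. DNAJB1, the main stress-inducible J protein, read 195, 157 and 154 with siRNA1, siRNA2 and control, and its other probe set gave 0.47 and 0.08. DNAJA3, the J protein of mitochondria, had 0.21 and 0.35, and its other probe set 0.20 and 0.38. DNAJB2, a J protein that sorts ubiquitinated clients, was at 28.1, 17.9 and 20.7. By their brightest probe sets DNAJA4, DNAJB4, DNAJB5, DNAJB13 and DNAJB14 lay within -0.22 and 0.09 of the control on the log2 scale. DNAJB13 was at the floor with siRNA2. The brightest DNAJB14 probe set had a deposited value of 63.2 on every array, while its others gave 0.31 and 0.45, and 0.05 and 0.03. The other DNAJB4 probe set gave 0.26 and 0.00.

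DNAJC proteins share only the J domain and have specialised tasks. DNAJC6, the auxilin that strips clathrin from vesicles with HSP70, read 64.2 with siRNA1, 12.1 with siRNA2 and 22.7 in the control. This was 2.83-fold higher with siRNA1 and 1.87-fold lower with siRNA2. It rests on 1 probe set of low intensity, since the second DNAJC6 probe set lay below the floor on every array, at 2.44, 1.71 and 1.71. With the floor at the 70th percentile the log2 ratio of DNAJC6 was 1.11 with siRNA1 and 0.00 with siRNA2. With the median over both probe sets the log2 ratio of DNAJC6 with siRNA1 was 0.75, short of 2-fold. That lower ratio was fixed in advance, because the second probe set is raised to the floor on every array. Without probe sets marked _s_at or _x_at, which can match several transcripts, DNAJC6 was not measured. DNAJC30, a mitochondrial J protein tied to the respiratory chain, read 97.0 with siRNA1, 183 with siRNA2 and 71.1 in the control, log2 ratios of 0.45 and 1.36. Its other measured probe set, at 12.5, 13.6 and 12.5, gave 0.00 and 0.12, and by the median over probe sets DNAJC30 was at 0.12 with siRNA2. That median could only be the dimmer measured probe set, because a further DNAJC30 probe set lay below the floor on every array.

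DNAJC16, a J protein of the ER, read 168 with siRNA1, 149 with siRNA2 and 104 in the control. Its log2 ratios were 0.69 and 0.51, and its other measured probe set, at 95.9, 69.9 and 42.0, gave 1.19 and 0.74, past 2-fold with siRNA1. DNAJC1, in the ER membrane, stood at 663, 603 and 465 with siRNA1, siRNA2 and control, and its 2 other probe sets gave 0.34 and 0.42 with siRNA1 and -0.03 and 0.24 with siRNA2. DNAJC10, a disulfide reductase of the ER, read 133 with siRNA1, 166 with siRNA2 and 108 in the control. Of its 3 other measured probe sets, the first pair gave 0.37 and 0.80 with siRNA1 and 0.42 and 0.47 with siRNA2, and the dimmest -0.12 and 0.36.

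DNAJC5, the cysteine string protein of secretory vesicles, read 106 with siRNA1, 63.4 with siRNA2 and 109 in the control. All 3 of its probe sets were below the control with siRNA2 (-0.78, -0.34 and -0.44), and with siRNA1 they gave -0.04, -0.05 and 0.52. DNAJC9, a chaperone of histones H3 and H4, had 973 with siRNA1, 681 with siRNA2 and 1008 in the control, and its second probe set gave -0.12 and -0.42. DNAJC2, which binds ribosomes as the partner of HSPA14, stood at 618, 527 and 726 with siRNA1, siRNA2 and control. DNAJC19, part of the motor that pulls proteins into mitochondria, read 419, 336 and 480, although its second probe set gave 0.22 and -0.14. The values of DNAJC5, DNAJC9, DNAJC2 and DNAJC19 were lowest on the siRNA2 array, which also had the highest 3′/5′ ratio of ACTB (14.4), and the part of RNA integrity in this was not tested. By their brightest probe sets the remaining 13 measured DNAJC genes lay within -0.23 and 0.54 with siRNA1 and -0.14 and 0.25 with siRNA2. Of these, DNAJC13, DNAJC17, DNAJC22 and DNAJC24 had deposited values equal on all 3 arrays. Other measured probe sets of DNAJC4 (-0.24), DNAJC7 (-0.22), DNAJC8 (0.50) and DNAJC18 (0.29) lay outside that range with siRNA2.

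**Figure D2:**
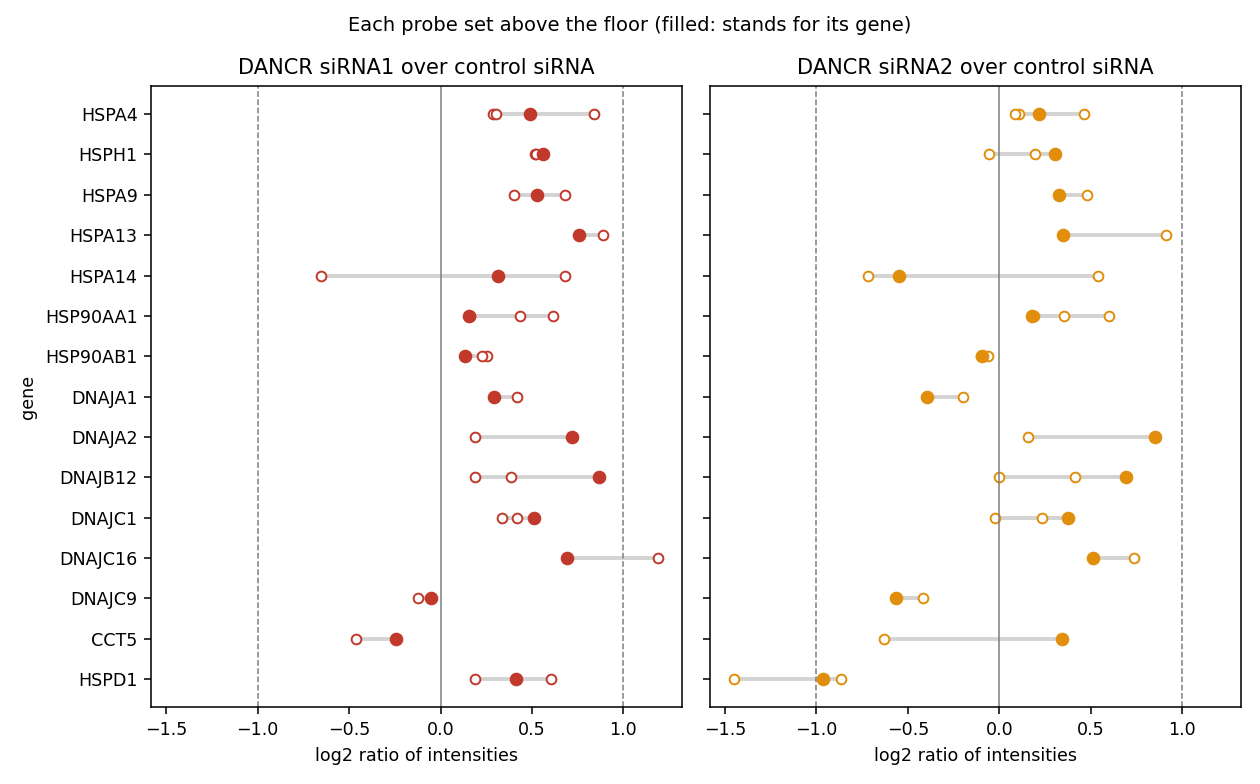
Log2 ratio to the control array (x axis) of every probe set above the floor, for 15 genes (y axis), with siRNA1 on the left and siRNA2 on the right. Filled points stand for their gene, open points are its other probe sets and grey bars span them; HSPD1 lies right of 0 with siRNA1 and left of it with siRNA2 on every probe set, whereas HSPA14 spans both sides in each panel.

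Probe sets could be set against each other in 40 members with at least 2 of them above the floor. They pointed in opposite directions in 8 of the 40 with siRNA1, 8 with siRNA2 and 12 in the ratio of siRNA1 to siRNA2. Opposed ratios of at least 0.25 on each side were seen for HSPA14 with siRNA1, for HSPA14 and CCT5 with siRNA2, and for DNAJC10 in siRNA1 over siRNA2. The median distance between the highest and lowest probe set of a gene was 0.22 with siRNA1 and 0.26 with siRNA2, on the log2 scale.

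The TRiC ring is built from related subunits that each occur once in a ring, and 7 of its genes were measured. Their median was 0.03 with siRNA1 and 0.00 with siRNA2. CCT8, with 2298, 2261 and 2261, and CCT7, with 1272, 1215 and 1248, were nearly level on the siRNA1, siRNA2 and control arrays. CCT2 was close to level too, at 2301, 2349 and 2389. CCT3 stood at 1659 with siRNA1, 1558 with siRNA2 and 1212 in the control, 1.37-fold and 1.29-fold higher. CCT4 had log2 ratios of 0.24 and -0.16 and CCT6A of 0.27 and 0.11, while the second CCT6A probe set gave 0.10 and -0.19. CCT5 read 1405, 2113 and 1665 with siRNA1, siRNA2 and control, log2 ratios of -0.25 and 0.34, but its dimmer probe set gave -0.46 and -0.63. By the median over both, CCT5 was at -0.35 and -0.14, so its direction with siRNA2 turned. The subunits thus did not share a direction, and none was 1.5-fold from the control by the brightest probe set. CCT6B, a testis form, lay below the floor.

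The chaperonin of mitochondria differed from TRiC in its values. HSPD1, the barrel known as HSP60, read 5448 with siRNA1, 2097 with siRNA2 and 4097 in the control. It was 1.33-fold higher with siRNA1 and 1.95-fold lower with siRNA2. Another HSPD1 probe set read 1762, 424 and 1158, log2 ratios of 0.61 and -1.45, and the dimmest, whose name carries no mark for multiple matches, read 62.2, 29.9 and 54.5, ratios of 0.19 and -0.87. All 3 measured HSPD1 probe sets were thus highest with siRNA1 and lowest with siRNA2. On the siRNA2 array the 3′/5′ ratio was highest for ACTB (14.4) and for GAPDH, at 1.35 against 1.29 with siRNA1 and 1.25 in the control, and the part of RNA integrity in the HSPD1 values was not tested. HSPE1, the lid that closes the barrel and whose gene begins 105 bases from an HSPD1 start, read 1768 with siRNA1, 1290 with siRNA2 and 1355 in the control. Its ratios of 0.38 and -0.07 came close to those of HSPD1 with siRNA1 and not with siRNA2, on a single probe set.

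**Figure D3:**
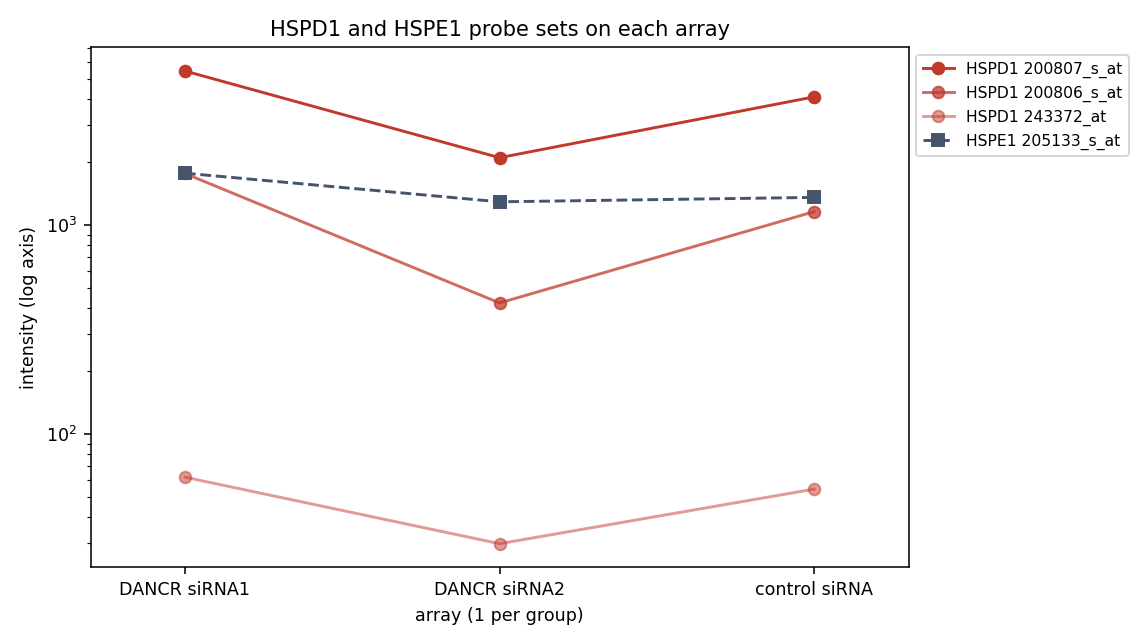
Intensity (y axis, log scale) of the 3 measured HSPD1 probe sets and the HSPE1 probe set on the siRNA1, siRNA2 and control arrays (x axis, 1 array per group). Lines join the values of a probe set and carry no error; every HSPD1 line has its lowest point with siRNA2, at 2097, 424 and 29.9, while HSPE1 there stands at 1290 against 1355 in the control.

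The regulators and the small heat shock proteins had small ratios. HSF1, the main heat shock factor, read 82.9 with siRNA1, 90.9 with siRNA2 and 99.2 in the control, and its second probe set was at 19.2 on every array. BAG3, a co-chaperone that HSF1 induces and that links HSP70 to autophagy, stood at 1221, 971 and 1263 with siRNA1, siRNA2 and control, log2 ratios of -0.05 and -0.38. HSPB1, the small heat shock protein HSP27, read 536, 502 and 470, ratios of 0.19 and 0.10, and HSPB8, a partner of BAG3, was at 13.5 on every array. Of the 6 genes with a 3-unit heat shock element, DNAJA1, HSP90AB1 and HSPD1 were above the control with siRNA1 and below it with siRNA2, HSP90AA1 was above it with both, DNAJB6 below it with both, and HSPA6 lay about the floor.

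By the compartment of the protein, the 8 genes of the ER had a median log2 ratio of 0.40 with siRNA1 and 0.36 with siRNA2. Higher than in the control were 6 of the 8 with siRNA1 and 7 with siRNA2, against 42.3% and 45.0% of all genes. They are HSPA13, DNAJB12, DNAJB14, DNAJC1, DNAJC10, DNAJC14, DNAJC16 and DNAJC18. The 7 measured mitochondrial genes had medians of 0.38 and -0.03, with 6 of 7 and 3 of 7 higher. The remaining 44 genes, of the cytosol, nucleus, vesicles or of no assigned place, had medians of 0.03 and -0.01, with 23 and 13 higher. All genes had medians of 0.00 in both comparisons. The compartments were assigned with the values known, so the split is a description.

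The second question was how the siRNA arrays differed from each other, a comparison that does not use the control. DNAJC6 and HSPD1 were 2-fold higher with siRNA1 than with siRNA2, 2 of 59 members against 1.51% of all genes, and no member was 2-fold lower, against 2.40%. DNAJC6 was 5.29-fold higher with siRNA1, a log2 ratio of 2.40, which was 1.11 with the floor at the 70th percentile. By the median over probe sets it was 1.20, lowered by the second probe set, which is at the floor on every array. HSPD1 was 2.60-fold higher, and its other measured probe sets gave log2 ratios of 2.06 and 1.06. At 1.5-fold, 6 members were higher with siRNA1, 10.2% against 5.21% of all genes. Beside DNAJC6 and HSPD1 these were HSPA14 (1.82-fold), DNAJC5 (1.67-fold), DNAJA1 (1.61-fold) and DNAJB2 (1.57-fold). The other probe sets gave log2 ratios of 0.14 and 0.07 for HSPA14, against 0.87 for the brightest, of 0.30 and 0.96 for DNAJC5 and of 0.62 for DNAJA1, and DNAJB2 has a single probe set. Lower by that measure were 2 members, 3.39% against 8.57% of all genes, DNAJC30 (1.88-fold lower with siRNA1) and CCT5 (a log2 ratio of -0.59). The dimmer measured probe sets gave -0.12 for DNAJC30 and 0.16, on the other side, for CCT5. The median difference was 0.09 over the members and 0.00 over all genes, with 34 members higher and 14 lower with siRNA1. These are 57.6% and 23.7% of the members, against 36.7% and 41.8% of all genes.

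**Figure D4:**
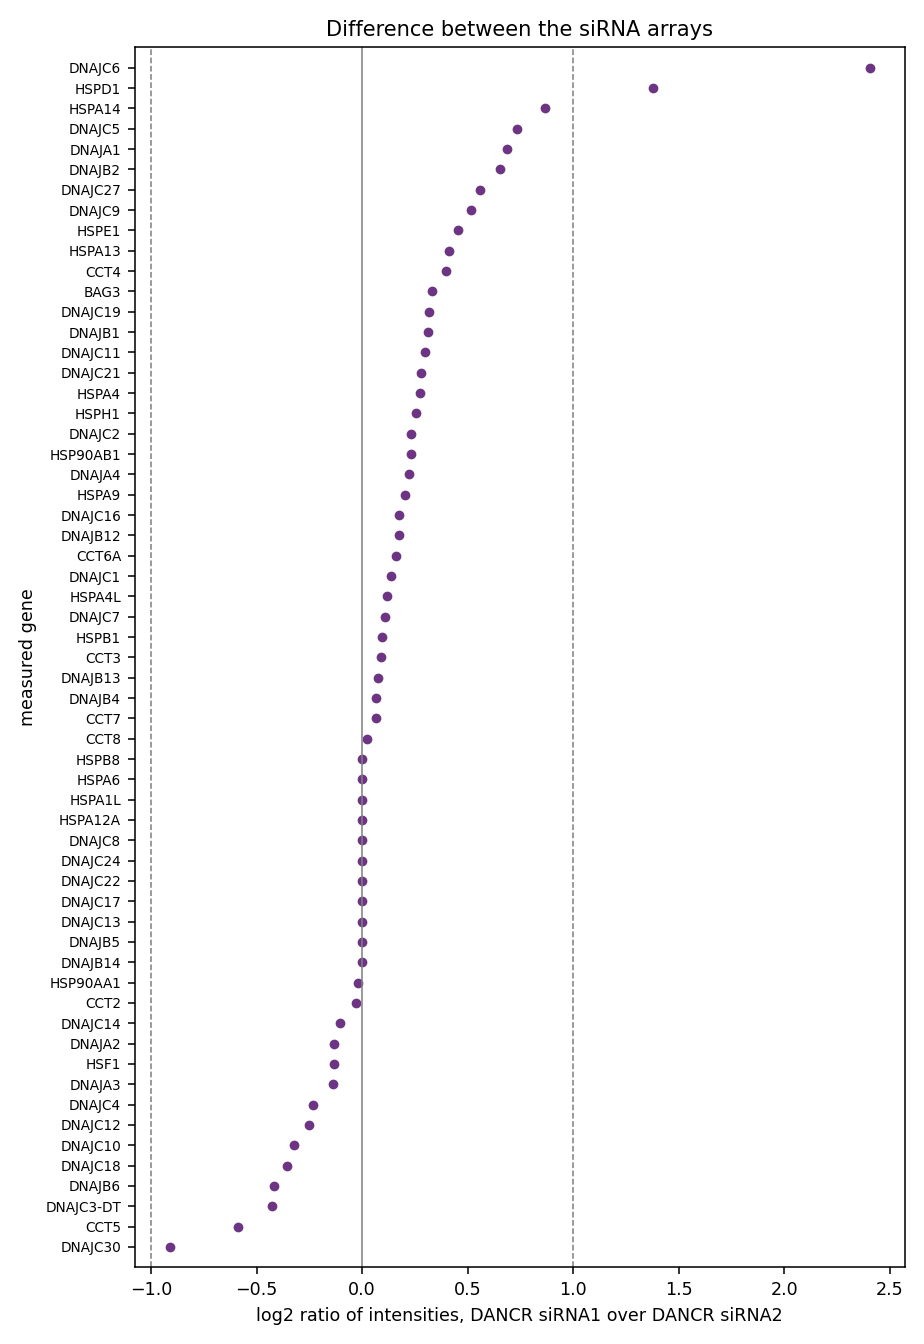
Log2 ratio of the siRNA1 to the siRNA2 array (x axis) for the 59 measured genes (y axis), in order of the ratio, with dashed lines at 2-fold. DNAJC6 (2.40) and HSPD1 (1.38) lie beyond the line on the right, and DNAJC30 (-0.91) is the point farthest left.

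The proteins that work with these chaperones, and are no members, were read from lists of co-chaperones. Each gene was read from its brightest probe set alone, and other probe sets were not compared. Of 11 measured HSP90 co-chaperones 9 were higher and 2 lower with siRNA1, and 8 were higher and 3 lower with siRNA2, with medians of 0.26 and 0.33. Of all genes 42.3% were higher and 39.5% lower with siRNA1, and 45.0% and 36.2% with siRNA2. PPID, a prolyl isomerase of the HSP90 complex, read 358 with siRNA1, 267 with siRNA2 and 177 in the control, and was the only one at 2-fold in a comparison, with siRNA1 (1.02), where 1.87% of all genes were 2-fold higher. Of 9 HSP70 co-chaperones 1 was higher and 7 lower with siRNA1, and 4 were higher and 2 lower with siRNA2, with medians of -0.13 and 0.00. ST13, which holds HSP70 in its ADP state, read 952, 999 and 671 with siRNA1, siRNA2 and control, ratios of 0.50 and 0.57. The probe set of PPID is marked _x_at and that of ST13 _s_at. The 5 measured prefoldins, which hand actin and tubulin to TRiC, had medians of 0.00 and 0.00, and PFDN1, at 0.09 and -0.21, had the ratio farthest from 0, with siRNA2.

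Among the 5 further mitochondrial chaperones, with medians of 0.08 and -0.04, GRPEL2 was the only one at 2-fold. Of all genes, 1.87% were 2-fold higher with siRNA1 than in the control, and 1.51% were 2-fold higher with siRNA1 than with siRNA2. GRPEL2, which exchanges nucleotides on the mitochondrial HSP70, read 672 with siRNA1, 239 with siRNA2 and 317 in the control, log2 ratios of 1.09 and -0.41. It was 1.49 higher on the log2 scale with siRNA1 than with siRNA2, where HSPD1 differed by 1.38 in the same comparison. Its relative GRPEL1 had 411, 553 and 461, on the other side of the control in each case. The other J-domain genes GAK, a second auxilin, and SEC63, of the ER translocon, had ratios of 0.12 and 0.29, and 0.32 and 0.46. GRPEL1 and GAK were chosen after their values were seen.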

How the data were processed

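In the deposited value table every probe set had 1 linear intensity for each array. How the authors scaled the arrays is not given in the sources used here, and the array medians were all 10.5. The submitters' processing notes named GCOS 1.4. Probe sets were named through the platform annotation supplied for the array, and only those of a single gene were used. The floor was the 50th percentile of all values, so a ratio that takes in a floored value is a bound. With 1 array per group, log2 ratios at a 2-fold threshold were computed with no p-value, and the number of arrays limits the precision. The members and lists were chosen with earlier results of these data known, and the roles, the compartments and the genes plotted by probe set with these values known too. The genes named were DNAJC6, HSF1 and BAG3, members at 2-fold in any comparison, 3 per role by intensity, 2 higher and 2 lower with both siRNAs per role, the TRiC subunits, and co-chaperones at 2-fold or farthest from the control in their list. Other members named with values were added after their values were seen. Results were recomputed after median-centring or quantile normalisation, with the floor at the 30th percentile, at the 70th or left out, by the median over probe sets, without _s_at and _x_at probe sets, and at thresholds of 1.5-fold and 3-fold. The calculation of the ratios was checked on simulated data, copies of the control array with planted folds and small noise. Such a check cannot show the error of a ratio between real arrays. Python 3.11.15, numpy 2.4.6, pandas 2.3.3 and matplotlib 3.10.9 were used.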

Additional observations from a re-analysis of the deposited data

How the results depend on the processing

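Median-centring, quantile normalisation and the floors at the 30th and 70th percentile left the counts of members past 2-fold at 1 with siRNA1, 1 with siRNA2, 2 between the siRNAs and 0 with both, and moved no median of the members by over 0.1. With the floor at the 70th percentile the log2 ratios of DNAJC6 were 1.11 with siRNA1, 0.00 with siRNA2 and 1.11 between the siRNAs. With no floor the median with siRNA1 was 0.0118. By the median over probe sets no member (0) was 2-fold from the control with siRNA2, because DNAJC30 was at 0.12, and DNAJC16 (1.19) took the place of DNAJC6 (0.75) with siRNA1. The lower ratio of DNAJC6 follows from its second probe set, which is at the floor on every array. DNAJC30 and DNAJC16 each have a further probe set below the floor on every array. Their medians could therefore only be the values of the dimmer measured probe set. Without _s_at and _x_at probe sets, where DNAJC6 is not measured, 0 members were 2-fold from the control with siRNA1 and 1 between the siRNAs. At 1.5-fold the counts were 5 with siRNA1, 7 with siRNA2, 8 between the siRNAs and 2 with both, DNAJA2 and DNAJB12. At 3-fold they were 0, 0, 1 and 0. The share of all genes at 1.5-fold with both siRNAs, and the shares at 3-fold, were not computed. Those counts therefore have no background to be read against, and the other probe sets of DNAJA2 and DNAJB12 were short of 1.5-fold. No paired analysis was possible because each group has a single array. Low intensities limit DNAJC6 and the members about the floor, and no difference here has a replicate error.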

Other observations

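The ER chaperones set aside from the members gave values of their own. All 9 genes of that list (HSPA5, DNAJB9, DNAJB11, DNAJC3, HSP90B1, HYOU1, PDIA4, CALR and CANX) were measured, with medians of 0.00 with siRNA1 and 0.23 with siRNA2. Higher than in the control were 4 of 9 with siRNA1 and 8 of 9 with siRNA2, against 42.3% and 45.0% of all genes. The count with siRNA1 is near that share. HYOU1, the HSP110-like exchange factor of the ER and chosen here after its values were seen, read 120 with siRNA1, 408 with siRNA2 and 310 in the control, log2 ratios of -1.37 and 0.40. It was the only gene of the list at 2-fold in any of the 3 comparisons. The HYOU1 probe set is marked _s_at, and no other probe set of the list was compared. Of all genes, 1.75% were 2-fold lower with siRNA1 than in the control, and 2.40% were 2-fold lower with siRNA1 than with siRNA2. DNAJC3-DT, a noncoding transcript that starts beside DNAJC3, read 8.21, 14.2 and 8.21, above the floor with siRNA2 alone.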
